A study of Mus musculus with 18 samples.

Results

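The 10 genes described here are negative-feedback regulators of mitogen-activated protein kinase (MAPK) signalling, together with 1 scaffold of the same pathway. They are the dual-specificity phosphatases *Dusp1*, *Dusp2*, *Dusp4*, *Dusp5*, *Dusp6* and *Dusp10*, the inhibitors *Spry1*, *Spry2* and *Spred1*, and *Ksr2*. They were picked out of the table by gene symbol, and all 10 were found among the 50600 genes of the count table. RNA-seq gene counts were available for FACS-purified Foxp3+ regulatory T cells (Tregs) of 18 C57BL/6 mice, 1 mouse per sample. Thymic Tregs came from 5 “cured” CD25cKO mice, in which a Cre expressed with YFP from the *Foxp3* locus deletes floxed *Il2ra*, and from 5 Foxp3/RFP mice with intact CD25, all 3 to 4 weeks old. The “cured” mice had been given WT splenocytes intravenously as neonates to prevent autoimmunity, so they also carried donor cells, while the Foxp3/RFP mice carried a different reporter allele of *Foxp3*. Splenic Tregs came from 4 CD25flox/Foxp3eGFP-Cre-ERT2/R26Y mice, in which tamoxifen activates the Cre and switches on a YFP reporter, and from 4 reporter controls. Tamoxifen was given at 7 to 10 weeks of age and spleens were taken 10 to 14 days later. Samples from the CD25-deleted mice are denoted CD25 KO and those from reporter mice WT. In the thymus the splenocyte transfer and the *Foxp3* reporter allele differed between the groups together with CD25. Their effects on thymic levels therefore cannot be told apart from that of CD25 deficiency. Thymic and splenic samples differed in mouse model, age and the date in the names of the deposited columns as well as in tissue, so these cannot be told apart.

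CD25 is the α chain of the high-affinity IL-2 receptor. IL-2 acts on Tregs mainly through STAT5, while in T cells the T-cell receptor and, to a varying degree, cytokine receptors also activate Ras, which drives the kinases RAF, MEK and ERK. ERK induces several of its own inhibitors: DUSP proteins remove the activating phosphates from MAPKs, Sprouty and Spred proteins act upstream at the level of Ras and RAF, and KSR proteins hold RAF, MEK and ERK together. Because many of these inhibitors are transcribed in response to ERK itself, their mRNA levels are often used as a readout of pathway activity.

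All 10 members passed the filter on low counts in the thymus, and all but *Spry2* in the spleen. Thymic samples held 17239774 to 23993674 counts and splenic samples 25258341 to 32639570, and 3 counts, taken as the detection floor, were at most 0.174 and 0.119 CPM (the count of a gene scaled to its library), covering counting error only. *Il2ra*, the targeted gene, was at 525 to 682 CPM in thymic WT Tregs and at 105, 279.9, 96.1, 234 and 95.9 CPM in thymic CD25 KO mice 1 to 5. In the spleen it was at 488 to 539 CPM in WT and 168 to 208 CPM in CD25 KO Tregs. *Il2ra* was therefore lower in every CD25 KO than in every WT sample of its tissue. Counts per gene cannot show the deletion of exon 4 itself. Thymic CD25 KO mice 2 and 4 stood apart from the other 3, and the members that moved most without this pair are given both ways below. *Foxp3*, the defining Treg gene, was expressed in all samples, at 399.7 to 578 CPM in thymic WT, 270 to 336 CPM in thymic CD25 KO, 322 to 345 CPM in splenic WT and 204 to 239.5 CPM in splenic CD25 KO Tregs. Summed markers of B cells (5 genes) and myeloid cells (6 genes) were at 10.2 to 23.9 and 7.05 to 28.9 CPM over all samples. Among all genes tested in the spleen, 5.90% were called higher in CD25 KO. In the spleen 1 gene of each list was called higher in CD25 KO, the B cell gene *Pax5* (1.03 to 2.17 CPM in WT, 2.69 to 3.58 CPM in CD25 KO; lost without splenic WT mouse 3 or 4) and the myeloid gene *Lyz2* (4.41 to 9.49 and 11.5 to 15.1 CPM), and the myeloid sum was 16.5 to 22.9 CPM in WT and 21.6 to 28.7 CPM in CD25 KO.

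The sequences in front of the transcription starts are shown for members that changed in splenic CD25 KO Tregs, *Spry1*, *Ksr2* and *Dusp10*, and for *Dusp1*. Each is the 250 bases upstream of the RefSeq start (GRCm38.p6), read 5′ to 3′ on the strand of the gene, with motif matches in capitals. Of the 10 members, 9 were matched to a promoter, and *Dusp4* was not. The windows lie at chr3:37639697-37639946 (plus strand) for *Spry1*, chr5:117413752-117414001 (plus strand) for *Ksr2*, chr1:184034131-184034380 (plus strand) for *Dusp10* and chr17:26508473-26508722 (minus strand) for *Dusp1*. For *Dusp10* and *Dusp1* the RefSeq start lies inside the longer span that GENCODE gives for the gene.
Spry1: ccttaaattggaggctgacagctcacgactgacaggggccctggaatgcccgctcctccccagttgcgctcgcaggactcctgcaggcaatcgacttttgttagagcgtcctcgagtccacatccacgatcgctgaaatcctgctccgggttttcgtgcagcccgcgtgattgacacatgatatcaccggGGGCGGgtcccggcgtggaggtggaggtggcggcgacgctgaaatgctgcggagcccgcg
Ksr2: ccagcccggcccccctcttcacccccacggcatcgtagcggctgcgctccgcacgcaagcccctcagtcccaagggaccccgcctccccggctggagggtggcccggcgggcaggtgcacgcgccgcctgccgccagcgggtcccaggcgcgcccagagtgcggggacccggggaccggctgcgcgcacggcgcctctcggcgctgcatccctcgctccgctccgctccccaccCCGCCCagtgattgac
Dusp10: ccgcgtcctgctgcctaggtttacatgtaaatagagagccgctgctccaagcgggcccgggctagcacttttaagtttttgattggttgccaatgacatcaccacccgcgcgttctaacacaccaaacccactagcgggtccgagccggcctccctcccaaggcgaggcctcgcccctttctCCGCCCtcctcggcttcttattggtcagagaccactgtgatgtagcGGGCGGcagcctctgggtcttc
Dusp1: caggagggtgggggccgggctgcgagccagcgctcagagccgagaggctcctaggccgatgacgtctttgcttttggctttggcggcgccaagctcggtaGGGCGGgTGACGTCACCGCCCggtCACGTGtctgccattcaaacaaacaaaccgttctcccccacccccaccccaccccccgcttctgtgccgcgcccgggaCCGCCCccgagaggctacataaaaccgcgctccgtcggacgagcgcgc
The capitals in *Spry1*, *Ksr2* and *Dusp10* are GC boxes (GGGCGG on either strand), at 60 bases before the start in *Spry1*, 16 in *Ksr2*, and 68 and 22 in *Dusp10*. A GC box was present in 7 of the 9 member promoters and in 32.7% of 32851 mouse promoters of the same length. In *Dusp1* the capitals also mark a cAMP response element (TGACGTCA, in 1.55% of promoters) and an E-box (CACGTG, in 6.02% of promoters). The cAMP response element starts 143 bases before the start, directly adjoins a GC box downstream and lies close to another upstream. *Dusp2* was the other member with an E-box. The STAT-type GAS motif TTCNNNGAA (7.02% of promoters), the AP-1 site TGANTCA (6.75%), the ETS site CCGGAAGT (2.88%), the forkhead-type site TGTTTAC (3.17%) and the TATA box TATAAA (12.4%) were not found in any of the 9 windows on either strand. These matches describe letters in a short window and say nothing about binding.

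Levels of the members covered a wide range, and the order differed between tissues. Levels between genes are compared per length, as CPM per kilobase of exon. In thymic WT Tregs the highest was *Dusp2*, at 107 ± 13.9 (SD, n = 5), followed by *Dusp4* at 82.8 ± 8.90, *Dusp5* at 58.0 ± 4.21, *Dusp1* at 55.2 ± 15.9, *Dusp10* at 37.0 ± 3.98 and *Dusp6* at 19.5 ± 4.38. The 4 other genes were lower, with *Spry1* at 7.69 ± 0.779, *Spred1* at 6.40 ± 0.748, *Ksr2* at 1.52 ± 0.0984 and *Spry2* at 1.44 ± 0.288. Neighbours in this order had overlapping ranges for *Dusp2* and *Dusp4*, *Dusp5* and *Dusp1*, *Dusp1* and *Dusp10*, *Spry1* and *Spred1*, and *Ksr2* and *Spry2*. In splenic WT Tregs *Dusp2* (83.5 ± 3.72, n = 4) and *Dusp1* (60.7 ± 3.56) were the highest and did not overlap with each other or with the rest. *Dusp5* (25.5 ± 1.43) and *Dusp4* (19.6 ± 1.49) followed, and *Dusp6* (14.6 ± 0.988), *Spry1* (13.9 ± 1.29) and *Dusp10* (13.4 ± 1.04) overlapped. *Spred1* (2.42 ± 0.116), *Ksr2* (1.84 ± 0.282) and *Spry2* (0.0533 ± 0.0422) were the lowest. As groups of samples, *Dusp2*, *Dusp4*, *Dusp5*, *Dusp10*, *Spred1* and *Spry2* were higher in every thymic than in every splenic sample (for *Dusp2* by the narrow margin of 174.5 over 173.9 CPM), and *Spry1* was higher in every splenic than in every thymic sample. These tissue differences were not tested, for the reason given above. The share of all genes with the tissues apart in this way was not computed. The separation is therefore not shown to be particular to the members.

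**Figure D1:**
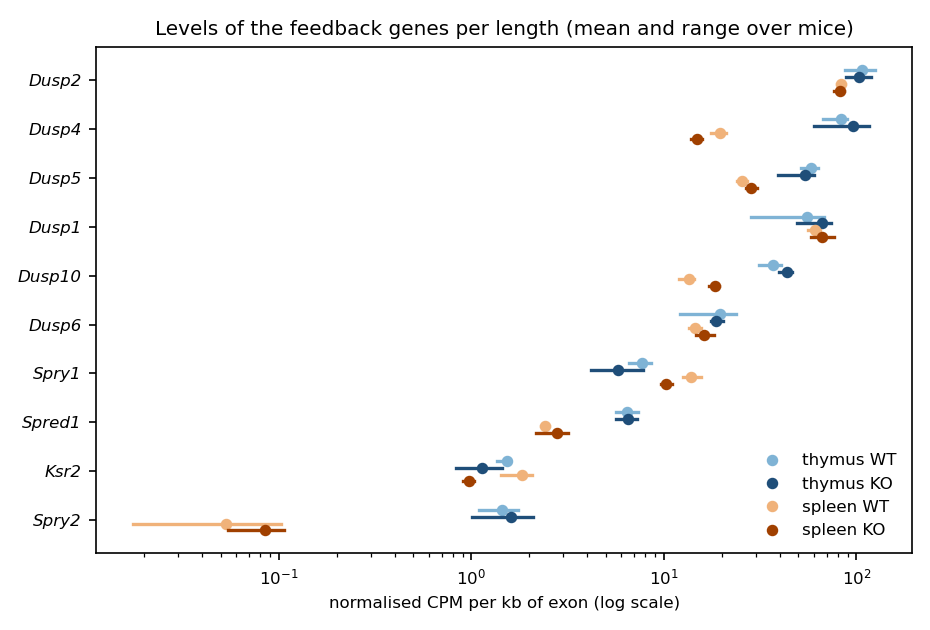
Level of each member per length (x axis, TMM-normalised CPM per kilobase of exon, log scale) in the 4 groups; points are means and lines the range over 5 thymic or 4 splenic mice. *Dusp2* leads in all groups, *Dusp4* drops from 82.8 in thymic WT to 19.6 in splenic WT Tregs, and *Spry2* is near the detection floor in the spleen.

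The difference between CD25 KO and WT was tested for each member within each tissue, on raw counts with the quasi-likelihood test of edgeR. In the thymus this difference includes that of transfer and reporter allele. P-values were adjusted over all genes tested by the Benjamini-Hochberg procedure, and FDR < 0.01 was required for a call. In splenic Tregs, 4 of the 9 members tested were called, 3 lower (*Ksr2*, *Spry1* and *Dusp4*) and 1 higher (*Dusp10*) in CD25 KO. Among all 17463 genes tested in the spleen, 9.45% were called, 3.55% lower and 5.90% higher. In thymic Tregs, none of the 10 members was called by edgeR, against 6.16% of all 16986 genes, 2.99% lower and 3.17% higher. In the thymus 3 members had an unadjusted p under 0.05 (*Dusp10*, *Spry1* and *Ksr2*), and the share of all genes at that p is not given here. DESeq2 called 2 of them, *Dusp10* and *Ksr2*, while over all genes it called 1246 lower and 1517 higher in the thymus. The median log2 fold change was 0.00380 over the 10 thymic and 0.127 over the 9 splenic members tested, beside -0.00224 and -0.00648 over all genes tested. WT and CD25 KO ranges were apart for the same 4 splenic members, beside 20.4% of all splenic genes tested, and for no thymic member, beside 16.4% of all thymic genes tested. In bulk samples, fewer cells that express a gene and less mRNA per cell cannot be told apart.

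**Figure D2:**
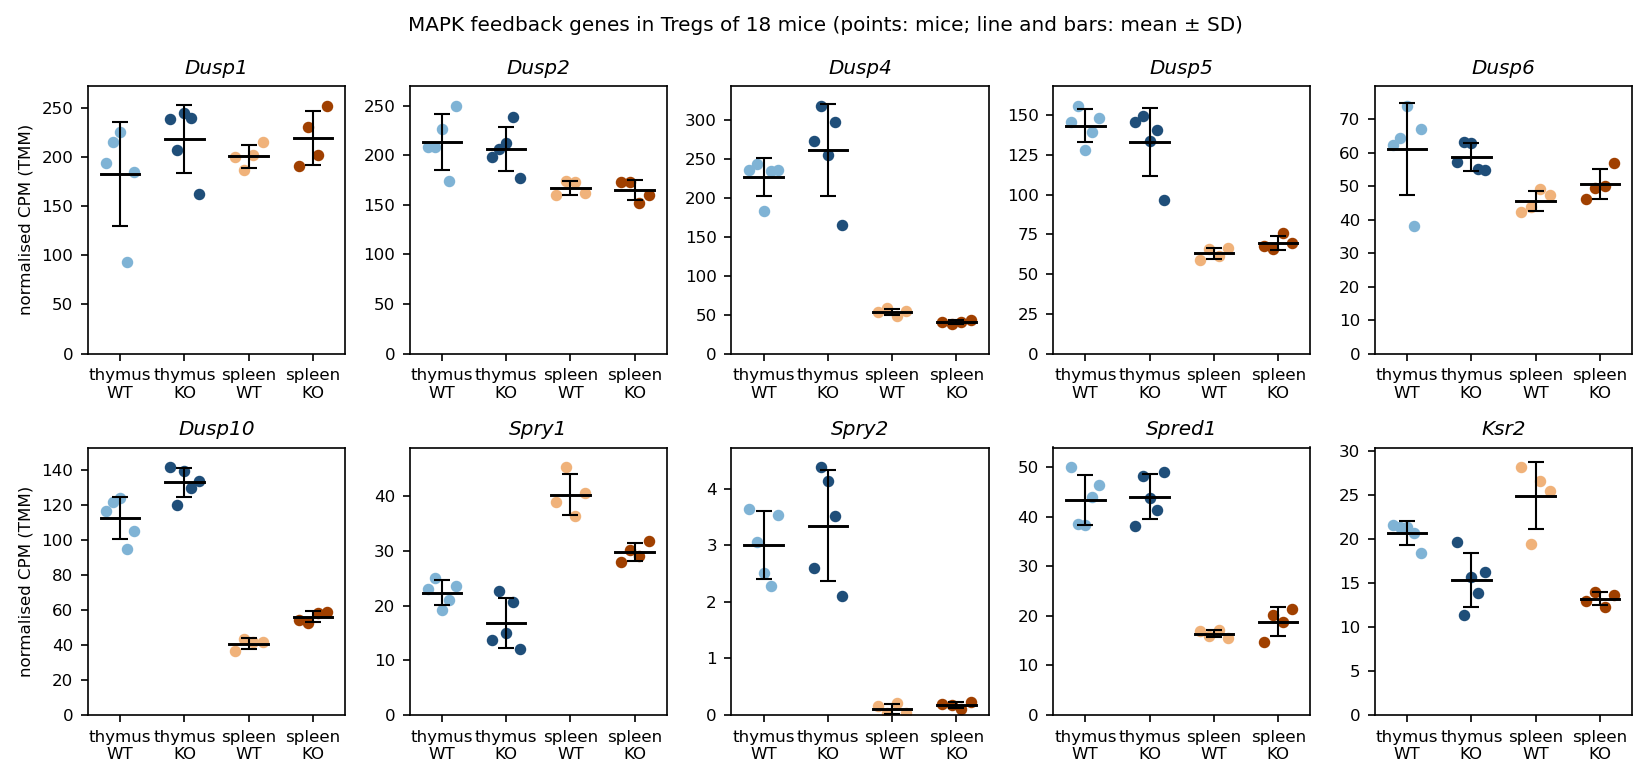
Level of each member (y axis, TMM-normalised CPM, linear from 0) in every mouse of the 4 groups; points are mice, lines the mean and bars the SD over 5 thymic or 4 splenic mice. In the spleen CD25 KO mice lie below WT for *Dusp4*, *Spry1* and *Ksr2* and above WT for *Dusp10*, while the thymic groups overlap for every member.

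*Ksr2*, a scaffold for RAF, MEK and ERK known for its part in energy metabolism, showed the largest change among the members. It is ENSMUSG00000061578.8 and lies on the plus strand at chr5:117414000-117775003 (GRCm38). In splenic WT mice 1 to 4 it was at 28.2, 19.5, 26.7 and 25.5 CPM, and in splenic CD25 KO mice 1 to 4 at 13.01, 14.0, 12.3 and 13.6 CPM. The groups did not overlap, although WT mouse 2 was lower than the other 3. The level was 1.88-fold lower in CD25 KO (log2 fold change -0.91, SE 0.103, edgeR adjusted p = 1.86e-05). The study singled out *Ksr2* from these same splenic samples, so this result is not independent of that choice. In the thymus WT mice 1 to 5 were at 21.7, 21.4, 21.4, 20.7 and 18.4 CPM and CD25 KO mice at 19.7, 11.3, 15.7, 13.9 and 16.3 CPM. Only CD25 KO mouse 1 reached into the WT range. The thymic log2 fold change was -0.41 (SE 0.120, 95% interval -0.68 to -0.15) and did not pass the threshold (edgeR adjusted p = 0.0284), but passed it with DESeq2 (adjusted p = 0.00785) and with all 18 samples in 1 edgeR fit (adjusted p = 0.00996).

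*Spry1* encodes a Sprouty protein that restrains Ras-ERK signalling downstream of receptors, and it was lower in splenic CD25 KO Tregs. It is ENSMUSG00000037211.12 at chr3:37639947-37644598, plus strand. Splenic WT mice were at 39.0, 45.3, 36.4 and 40.6 CPM and splenic CD25 KO mice at 27.9, 30.2, 29.1 and 31.9 CPM. The groups did not overlap, and the level was 1.35-fold lower in CD25 KO (log2 fold change -0.43, SE 0.0723, edgeR adjusted p = 0.000588). With all 18 samples in 1 fit, which shares the spread of the thymic mice, this call was lost (adjusted p = 0.0567). Thymic WT mice were at 23.0, 25.0, 19.2, 21.1 and 23.6 CPM and thymic CD25 KO mice 1 to 5 at 13.7, 22.6, 14.9, 20.7 and 12.1 CPM. The thymic log2 fold change was -0.39 (SE 0.160, 95% interval -0.74 to -0.04, edgeR adjusted p = 0.0932). A gene model on the opposite strand, Gm42922, shares 710 exon bases with *Spry1* but had at most 18 counts in any sample.

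Within the thymic CD25 KO group, *Spry1* and *Ksr2* stood in opposite order in the mice with more *Il2ra*. CD25 KO mice 2 and 4, with 279.9 and 234 CPM of *Il2ra*, had *Spry1* at 22.6 and 20.7 CPM, inside the WT range of 19.2 to 25.0, whereas the 3 mice with 95.9 to 105 CPM of *Il2ra* had *Spry1* at 12.1 to 14.9 CPM, below every WT mouse. For *Ksr2* the same mice 2 and 4 were the lowest of the group, at 11.3 and 13.9 CPM. Without this pair, thymic *Spry1* was called (log2 fold change -0.71, edgeR adjusted p = 0.000977) and was the only thymic member called, while thymic *Ksr2* was at -0.26 (adjusted p = 0.0705) and *Dusp10* at 0.31 (adjusted p = 0.0208). *Dusp4* was then at 0.03 (adjusted p = 0.881), *Dusp5* at -0.19 (adjusted p = 0.242) and *Dusp2* at -0.11 (adjusted p = 0.446). Mice 2 and 4 were picked out by *Il2ra*, and no test between them and the other CD25 KO mice was made. They were also the CD25 KO mice with *Spry1* inside the WT range. Leaving them out therefore separated the groups for *Spry1*, and the call without them is not independent support for a thymic change.

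**Figure D3:**
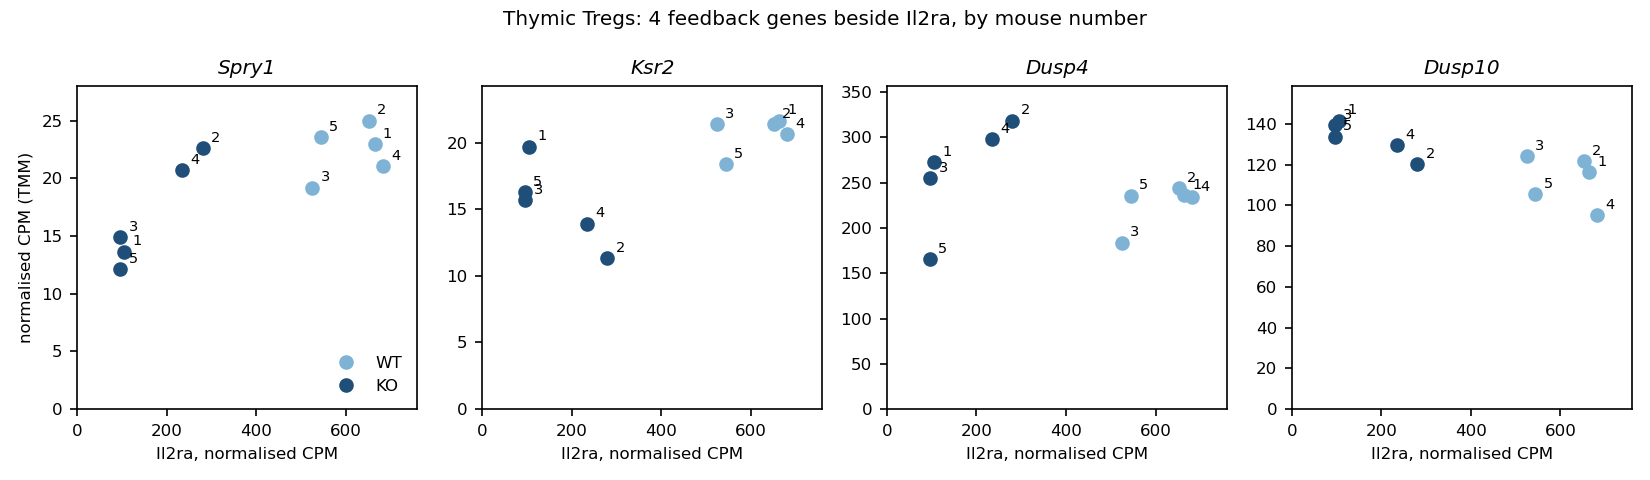
*Spry1*, *Ksr2*, *Dusp4* and *Dusp10* (y axes, TMM-normalised CPM) beside *Il2ra* (x axis, TMM-normalised CPM) in the 10 thymic mice, numbered within WT and CD25 KO. CD25 KO mice 2 and 4 have the most *Il2ra* of their group, *Spry1* inside the WT range (22.6 and 20.7 CPM) and the lowest *Ksr2* (11.3 and 13.9 CPM).

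*Dusp4* encodes a nuclear phosphatase for ERK and JNK and was lower in splenic CD25 KO Tregs. It is ENSMUSG00000031530.6 at chr8:34807297-34819894, plus strand. Splenic WT mice were at 52.8, 57.9, 48.3 and 55.3 CPM and splenic CD25 KO mice at 41.1, 37.95, 40.3 and 43.3 CPM. All CD25 KO mice were below all WT mice, with a 1.32-fold lower level (log2 fold change -0.40, SE 0.0651, edgeR adjusted p = 0.000522). As for *Spry1*, the call was lost with all 18 samples in 1 fit (adjusted p = 0.0788). In the thymus the WT mice were at 236, 244, 184, 234 and 236 CPM and the CD25 KO mice at 273, 318.5, 255, 298 and 166 CPM. The highest 4 values of the tissue were CD25 KO mice 1 to 4, but CD25 KO mouse 5 was the lowest of all 10, and the log2 fold change was 0.23 (SE 0.145, 95% interval -0.09 to 0.54, edgeR adjusted p = 0.276).

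*Dusp10* encodes a phosphatase that acts on p38 and JNK rather than on ERK, and it was the member that rose in splenic CD25 KO Tregs. It is ENSMUSG00000039384.8 at chr1:184013302-184075636, plus strand. Splenic WT mice were at 36.3, 43.6, 41.5 and 42.0 CPM and splenic CD25 KO mice at 54.5, 52.4, 58.6 and 58.9 CPM. The groups did not overlap, and the level was 1.37-fold higher in CD25 KO (log2 fold change 0.46, SE 0.0650, edgeR adjusted p = 0.000150). Thymic WT mice were at 116, 122, 124, 95.1 and 105 CPM and thymic CD25 KO mice at 142, 120.3, 139.5, 129.5 and 134 CPM. Of the 5 CD25 KO mice, 4 were above every WT mouse. The thymic log2 fold change of 0.26 (SE 0.0729, 95% interval 0.10 to 0.41) did not pass the edgeR threshold (adjusted p = 0.0263) but passed it with DESeq2 (adjusted p = 0.00816).

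The other phosphatases did not pass the test in either tissue. *Dusp6* (ENSMUSG00000019960.8, chr10:99263231-99267489, plus strand) encodes a cytoplasmic phosphatase specific to ERK whose mRNA is a common marker of ERK activity. It was at 62.3, 64.4, 74.1, 37.99 and 67.3 CPM in thymic WT and at 57.2, 63.3, 62.9, 55.0 and 55 CPM in thymic CD25 KO mice, and the groups overlapped widely. Splenic WT mice were at 42.3, 43.9, 49.1 and 47.3 CPM and splenic CD25 KO mice at 46.1, 49.6, 50.2 and 56.8 CPM. The log2 fold changes were -0.04 (95% interval -0.34 to 0.26, edgeR adjusted p = 0.844) in the thymus and 0.15 (95% interval 0.01 to 0.30, edgeR adjusted p = 0.147) in the spleen. *Dusp5* (ENSMUSG00000034765.6, chr19:53529109-53542431, plus strand) is the nuclear ERK phosphatase and a known target of IL-2 in T cells. Splenic WT mice were at 59.0, 65.5, 61.6 and 66.6 CPM and splenic CD25 KO mice at 67.8, 66.0, 75.6 and 69.4 CPM, so that 1 CD25 KO mouse lay inside the WT range. In the thymus WT mice were at 146, 156, 128.2, 139 and 148 CPM and CD25 KO mice at 146, 149.5, 134, 141 and 96.7 CPM. Mouse 5 was again the lowest of the tissue. The log2 fold changes of *Dusp5* were -0.09 (95% interval -0.31 to 0.13, edgeR adjusted p = 0.549) in the thymus and 0.14 (95% interval 0.02 to 0.27, edgeR adjusted p = 0.112) in the spleen. An antisense gene on the opposite strand, AC137853.2, shares 547 exon bases with *Dusp5*, and since the strand setting of the counting was not given in the sources used here, its reads cannot be told apart from those of *Dusp5*.

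*Dusp1* and *Dusp2* encode nuclear phosphatases that are induced within minutes of stimulation. *Dusp2* (ENSMUSG00000027368.6, chr2:127336159-127338376, plus strand) had the smallest fold change of the members tested in both tissues. It was at 208, 208.1, 227, 174.5 and 250 CPM in thymic WT and at 198, 207, 213, 239 and 177.5 CPM in thymic CD25 KO mice. In the spleen it was at 159.6, 174, 173, 162 CPM in WT and at 173.5, 173, 152 and 160.4 CPM in CD25 KO mice. The 95% intervals of its log2 fold change reached from -0.24 to 0.18 in thymic and from -0.14 to 0.10 in splenic Tregs (edgeR adjusted p = 0.847 and 0.866). *Dusp1* (ENSMUSG00000024190.6, chr17:26505590-26562128, minus strand) was at 194, 216, 226, 93.4 and 185 CPM in thymic WT mice and at 239, 207, 245, 240.2 and 163 CPM in thymic CD25 KO mice. WT mouse 4 had less than any other sample. In the spleen *Dusp1* was at 200, 187, 202 and 215 CPM in WT and at 191, 231, 202 and 252 CPM in CD25 KO mice. The log2 fold changes were 0.28 (95% interval -0.14 to 0.70, edgeR adjusted p = 0.318) and 0.13 (95% interval -0.03 to 0.29, edgeR adjusted p = 0.280).

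*Dusp1*, *Dusp2*, *Dusp6* and *Dusp10* each had their lowest thymic value in WT mouse 4, in which some other immediate-early genes were low as well. *Fos*, an ERK-responsive transcription factor gene, was at 117, 124, 142, 10.8 and 30.2 CPM in thymic WT and 30.6 to 45.3 CPM in thymic CD25 KO mice, and *Jun* at 157, 197, 169.9, 34.5 and 69.7 CPM and 37.5 to 54.8 CPM. WT mice 4 and 5 were lower than the other 3 WT mice in both genes, and WT mouse 4 was below every CD25 KO mouse. *Egr1* was lowest of the thymic WT mice in mouse 4 (132.1 CPM), but *Nr4a1* was not (264.7 CPM, and 261 CPM in WT mouse 3). In WT mouse 5 *Dusp1* (185 CPM) and *Dusp6* (67.3 CPM) lay within the range of WT mice 1 to 3 or close to it. WT mouse 4 also had the highest sum of CD8 or double-positive thymocyte markers, at 172 CPM against 40.01 to 73.7 CPM in the other WT mice. Without it the thymic log2 fold changes were 0.11 for *Dusp1* (edgeR adjusted p = 0.499) and -0.17 for *Dusp6* (adjusted p = 0.107). The difference in *Fos* did not pass the test (log2 fold change -1.16, SE 0.512, edgeR adjusted p = 0.117). Of 10 genes tested from a list of 12 that respond to tissue handling, 3 were lower in thymic CD25 KO Tregs, beside 2.99% of all genes. These were *Socs3* (31.4 to 42.4 CPM in WT, 17.2 to 22.8 CPM in CD25 KO), which cytokine signalling through STAT proteins also induces, and the heat-shock genes *Hspa1a* (0.594 to 8.12 CPM in WT, 0 to 0.218 CPM in CD25 KO) and *Hspa1b* (2.29 to 26.5 CPM in WT, 0.350 to 0.692 CPM in CD25 KO), near-identical copies whose reads may be shared. In the spleen 0 of 8 were called by edgeR and 1 by DESeq2, and 4 had an unadjusted p under 0.05. The part of handling or of other thymocytes in the thymic levels of the members was not tested.

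The remaining inhibitors, *Spred1* and *Spry2*, did not pass the test. *Spred1* (ENSMUSG00000027351.14, chr2:117121374-117182279, plus strand) encodes a protein that brings the Ras inhibitor neurofibromin to the membrane. It was at 50.0, 38.5, 38.3, 44.0 and 46.5 CPM in thymic WT and 38.1, 48.1, 43.8, 41.3 and 49.0 CPM in thymic CD25 KO mice (log2 fold change 0.04, 95% interval -0.17 to 0.25, edgeR adjusted p = 0.808). Splenic WT mice were at 16.98, 15.9, 17.2 and 15.6 CPM and splenic CD25 KO mice at 14.7, 20.3, 18.8 and 21.4 CPM, with 3 of the 4 CD25 KO mice above all WT mice (log2 fold change 0.20, 95% interval -0.02 to 0.41, edgeR adjusted p = 0.209). *Spry2* (ENSMUSG00000022114.4, chr14:105891947-105896819, minus strand) is a relative of *Spry1* and was at a lower level than *Spry1* in these cells. Thymic WT mice were at 3.64, 3.06, 2.52, 2.29 and 3.55 CPM and thymic CD25 KO mice at 2.60, 4.38, 4.14, 3.51 and 2.10 CPM (log2 fold change 0.17, 95% interval -0.30 to 0.64, edgeR adjusted p = 0.588). In the spleen it had 4, 1, 5 and 1 counts in WT and 5, 5, 3 and 7 counts in CD25 KO mice, and was left out by the filter on low counts. A difference in splenic *Spry2* was not detectable at this depth.

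**Figure D4:**
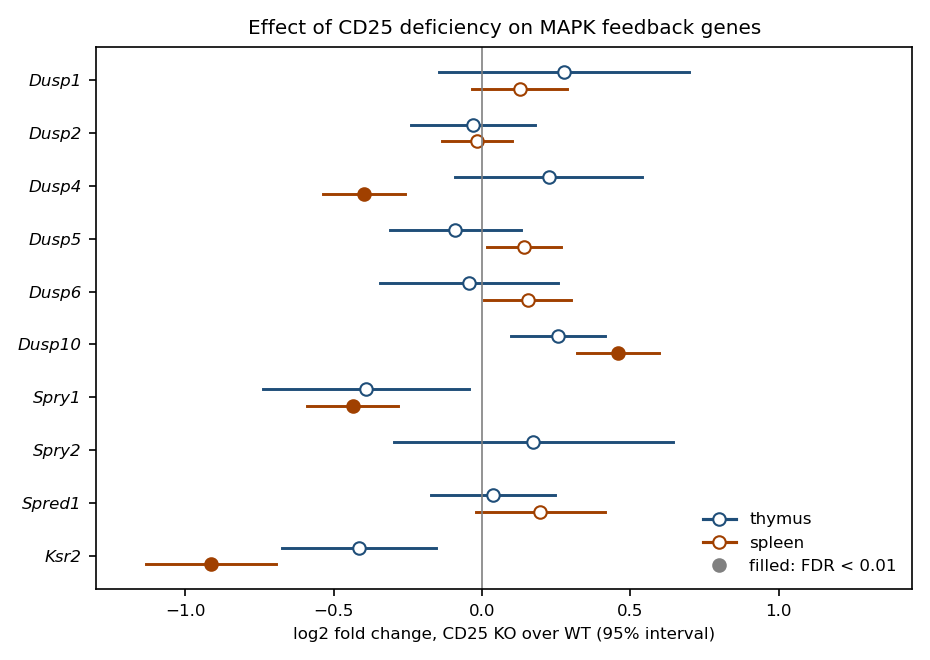
Log2 fold change of CD25 KO over WT (x axis) for each member in the thymus and the spleen, with 95% intervals; filled points are FDR < 0.01 by edgeR. In the spleen *Ksr2* (-0.91), *Spry1* (-0.43) and *Dusp4* (-0.40) lie below 0 and *Dusp10* (0.46) above it; splenic *Spry2* was not tested.

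Whether the difference between CD25 KO and WT was unlike in the 2 tissues was tested with 1 edgeR model over the 18 samples. In this model 6.98% of 18686 genes were called. None of the 10 members was called by edgeR or DESeq2, and 2 had an unadjusted p under 0.05. For *Dusp4* the splenic minus the thymic log2 fold change was -0.61 (SE 0.183, 95% interval -0.99 to -0.23, edgeR adjusted p = 0.0276). Without thymic CD25 KO mouse 5 it was -0.73 and was called (adjusted p = 0.000256), and without thymic CD25 KO mice 2 and 4 it was -0.42 and was not called (adjusted p = 0.0698). For *Ksr2* the difference was -0.49 (SE 0.174, adjusted p = 0.0603), and it was called without thymic CD25 KO mice 2 and 4 (-0.65, adjusted p = 0.00368). These mice had the lowest thymic *Ksr2* of their group, so that call is not independent support. For *Spry1* the fold changes of the tissues were close, with a difference of -0.03 and a 95% interval of -0.43 to 0.37, and for *Dusp10* the difference was 0.22 (95% interval -0.01 to 0.44, adjusted p = 0.165). The pattern of 4 splenic and 0 thymic calls is thus not shown to be a difference between the tissues.

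Other genes of the pathway were taken from lists of known members. Calls in these lists stand beside 6.16% of all genes tested in the thymus and 9.45% in the spleen. For the difference between tissues the share was 6.98%. No share of all genes is given for an unadjusted p under 0.05. Of 15 other dual-specificity phosphatases, 12 were tested in the spleen and 3 were higher in CD25 KO Tregs: *Dusp16*, which acts on JNK and p38 (12.3 to 21.7 CPM in WT, 29.1 to 35.5 CPM in CD25 KO; log2 fold change 0.96, edgeR adjusted p = 0.000113), *Dusp14* (4.65 to 6.19 and 8.56 to 12.8 CPM; 0.95, adjusted p = 0.000237) and *Dusp3* (1.24 to 2.01 and 2.36 to 4.00 CPM; 0.92, adjusted p = 0.00659). The call of *Dusp3* was lost in 5 of the 8 fits that left out 1 mouse, with splenic WT mouse 1, 2 or 3 or splenic CD25 KO mouse 2 or 3 left out. The median splenic log2 fold change of the 12 was 0.23. In the thymus 1 of 9 was called, the ERK phosphatase *Dusp7* (40.4 to 48.9 CPM in WT, 26.7 to 33.4 CPM in CD25 KO; -0.58, adjusted p = 0.000736), and the median was -0.01. The effects differed between tissues for *Dusp14* (splenic minus thymic log2 fold change 1.75, edgeR adjusted p = 0.000439), *Dusp16* (0.99, adjusted p = 0.00171) and *Dusp7* (0.61, adjusted p = 0.000847). Of 3 other Sprouty and Spred genes in the table (*Spry4*, *Spred2* and *Spred3*), none was called by edgeR or DESeq2 in the thymus (3 tested, 2 at an unadjusted p under 0.05) or the spleen (2 tested, 0 at an unadjusted p under 0.05).

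Among 10 genes of the ERK cascade itself, 2 were called in the thymus, both lower, beside 2.99% lower among all genes tested. The related scaffold *Ksr1* was lower in thymic CD25 KO Tregs (32.1 to 36.1 CPM in WT, 20.1 to 26.7 CPM in CD25 KO; log2 fold change -0.48, edgeR adjusted p = 0.00315), a call lost without thymic WT mouse 2 (adjusted p = 0.0107). The Ras gene *Hras* (-0.32, adjusted p = 0.00938) was close to the threshold and lost its call without any 1 of the 10 thymic mice. In the spleen 0 of the 10 were called by edgeR and 1 by DESeq2, and 3 had an unadjusted p under 0.05. The KO effect differed between tissues for *Ksr1* (0.72, edgeR adjusted p = 8.52e-05) and *Hras* (0.46, adjusted p = 0.00423). The last call was lost without thymic WT mouse 5, thymic CD25 KO mouse 3, splenic WT mouse 4, or splenic CD25 KO mouse 2 or 4. Of 11 splenic genes that activate Ras, 2 were lower and 3 higher, among them the exchange factors *Rasgrp4* (-0.73, adjusted p = 0.00681, lost in 6 of 8 fits that left out 1 mouse) and *Rasgrp1* (-0.34, adjusted p = 0.000188) and the phosphatase *Ptpn11* (0.49, adjusted p = 3.17e-05). Of 12 thymic Ras activators, none was called by edgeR and 2 by DESeq2, and 6 had an unadjusted p under 0.05. Of 13 Ras inhibitors, 1 was called in each tissue, *Dab2ip* in the thymus (-1.20, adjusted p = 0.00821) and *Nf1* in the spleen (0.28, adjusted p = 0.00835), and either call was lost in all but 1 of the fits that left out 1 mouse.

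In the JNK and p38 branch, on which *Dusp10* acts, 4 of 19 thymic and 2 of 19 splenic genes were called. Among all genes tested, 6.16% were called in the thymus and 9.45% in the spleen. *Map2k3*, a kinase that activates p38, was lower in thymic CD25 KO Tregs (25.7 to 31.3 and 17.2 to 22.7 CPM, log2 fold change -0.51, edgeR adjusted p = 0.00488). It was higher in splenic CD25 KO Tregs (32.8 to 36.7 and 48.3 to 56.9 CPM, log2 fold change 0.57, edgeR adjusted p = 2.34e-05). The effects differed between tissues by 1.10 on the log2 scale (edgeR adjusted p = 7.26e-06). The thymic call of *Map2k3* was lost without WT mouse 2, WT mouse 5 or CD25 KO mouse 1. *Mapkapk3*, a kinase downstream of p38, was lower in the thymus (-0.40, adjusted p = 0.00234), whereas the JNK genes *Mapk8* (0.45, adjusted p = 0.00485) and *Mapk9* (0.25, adjusted p = 0.00575) were higher, and the last 2 calls were lost in 5 and 7 of the 10 fits that left out 1 mouse. In the spleen *Gadd45b*, an activator of p38 and JNK signalling, was higher (28.4 to 30.7 and 38.3 to 39.8 CPM; 0.43, adjusted p = 6.56e-05).

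Of the ERK-responsive early genes, 2 of 14 were lower in the thymus (*Myc* and *Ier2*), and 1 of 15 was lower and 3 higher in the spleen. Among all genes tested, 2.99% were lower in the thymus, and 3.55% lower and 5.90% higher in the spleen. *Egr1*, a transcription factor gene induced by ERK, was higher in splenic CD25 KO Tregs, at 166, 158, 146 and 140.3 CPM in WT and 217, 254, 228.5 and 218 CPM in CD25 KO mice (log2 fold change 0.59, edgeR adjusted p = 1.52e-05). *Egr2* behaved alike (0.65, adjusted p = 0.000125), and both effects exceeded those in the thymus (difference 0.64 and 0.72, edgeR adjusted p = 0.000776 and 0.00134). Splenic *Fos* was at 96.5, 102, 138.1 and 138.1 CPM in WT and 74.1, 102, 105 and 140 CPM in CD25 KO mice and did not pass the test (edgeR adjusted p = 0.497). *Ier3* was higher in the spleen (1.18, adjusted p = 0.00801), a call lost in 7 of the 8 fits that left out 1 mouse. *Myc*, a growth gene that STAT5 also controls, was lower in both tissues, at 117 to 134 and 48.0 to 78.3 CPM in thymic WT and CD25 KO (-0.96, adjusted p = 0.000364) and at 96.0 to 112 and 46.8 to 55.9 CPM in splenic WT and CD25 KO Tregs (-1.02, adjusted p = 1.19e-07). Of 11 ERK substrates tested in each tissue, 1 was lower in each, the transcription factor *Elk1* in the thymus (-0.52, adjusted p = 0.00205) and the kinase *Rps6ka2* in the spleen (-0.64, adjusted p = 0.00791, lost in 6 of 8 fits that left out 1 mouse). *Ier2* had a thymic log2 fold change of -0.38 (adjusted p = 0.00873), a call kept in 2 of the 10 fits that left out 1 mouse. The splenic changes among these genes therefore ran in both directions. Of the 11 thymic calls in the pathway lists, 10 were kept without thymic CD25 KO mice 2 and 4, *Hras* was lost (adjusted p = 0.0159), and the kinase genes *Map2k6* (0.31, adjusted p = 0.00606) and *Rps6ka3* (0.33, adjusted p = 0.00766) were called in addition.

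**Figure D5:**
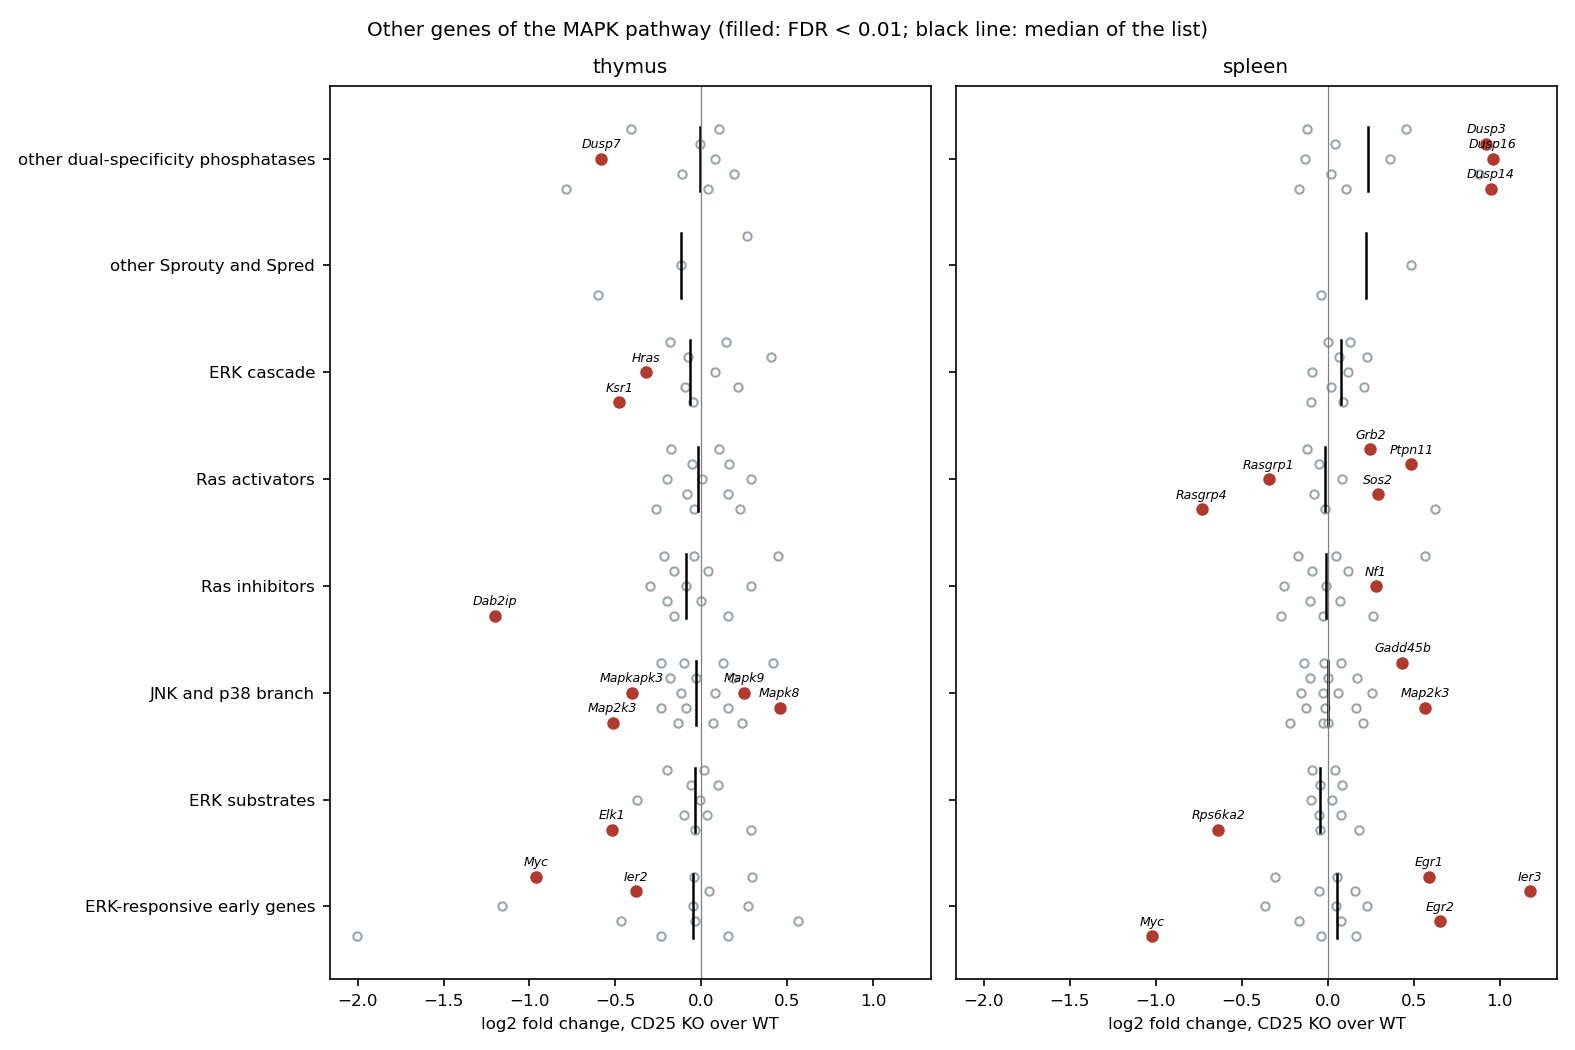
Log2 fold change of CD25 KO over WT (x axis) for the tested genes of 8 pathway lists (y axis) in the thymus and the spleen; each point is a gene, filled and named at FDR < 0.01 by edgeR, and black lines are list medians. In the spleen 3 of 12 other dual-specificity phosphatases are called, all higher, and in the thymus 1 of 9 is called, *Dusp7*, which is lower. Among all genes tested, 9.45% are called in the spleen and 6.16% in the thymus.

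Markers of Treg state also differed between CD25 KO and WT Tregs, and their levels were not related to those of the members mouse by mouse. Among all genes tested, 3.55% were called lower and 5.90% higher in the spleen, and 2.99% lower and 3.17% higher in the thymus. In the spleen 10 of 11 effector Treg genes were higher in CD25 KO. Their summed level was 799 to 980.4 CPM in WT and 1297 to 1523 CPM in CD25 KO Tregs. Of 8 central Treg genes 4 were lower and 1 higher (*Tcf7*, log2 fold change 0.24, a call kept in 1 of the 8 fits that left out 1 mouse), with a sum of 2455 to 2996 CPM in WT and 2195 to 2458 CPM in CD25 KO Tregs. The thymic effector sum went the other way, from 357 to 404 CPM in WT to 201 to 321 CPM in CD25 KO Tregs, with 6 of 10 genes lower, and the CD25 KO mice with the highest sums were mice 2 and 4 (321 and 319 CPM). The count of 6 was 2 to 4 without WT mouse 2, 3 or 5 or CD25 KO mouse 1 or 3. The thymic central sum did not rise, at 3645 to 4165 CPM in WT and 3447 to 3797 CPM in CD25 KO Tregs. Of its 8 genes 1 was lower (*Klf2*, log2 fold change -0.53, a call kept in 6 of the 10 fits that left out 1 mouse) and 0 higher. Much of both lists was chosen by the study on these samples and is not independent evidence. Natural killer cell markers (4 genes) summed to 4.71 to 8.02 CPM in splenic WT and 10.9 to 16.3 CPM in splenic CD25 KO samples, mostly from *Eomes* (2.36 to 7.66 and 6.87 to 13.2 CPM). *Klrb1c* (0.366 to 2.60 and 3.04 to 5.77 CPM) was called higher in CD25 KO (log2 fold change 1.90, edgeR adjusted p = 0.00290, lost without splenic WT mouse 3 or 4), while the defining genes *Ncr1* and *Klra8* were at 0 in all splenic samples. Markers of CD8 or double-positive thymocytes (6 genes) summed to 40.01 to 172 CPM in thymic WT and 45.6 to 98.2 CPM in thymic CD25 KO samples, and *Rag1* among them was at 0 in all splenic samples. The part of Treg state or of other cells in the changes of *Ksr2*, *Spry1*, *Dusp4* and *Dusp10* was not tested.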

How the data were processed

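The authors prepared ribosome-depleted total RNA libraries, sequenced them as 75-base read pairs, aligned the reads to GRCm38 with STAR 2.5.0b and counted them per gene of GENCODE M13 with featureCounts 1.5.0. The deposited values are raw counts, without normalization. The handling of strand and of reads with several hits was not given in the sources used here. Symbols, coordinates and exon lengths came from GENCODE M21, of the same build, and promoter sequences from RefSeq (GRCm38.p6).

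Counts were analysed in R 4.3.3 with edgeR 4.0.16 (filterByExpr, TMM, quasi-likelihood test, Benjamini-Hochberg adjustment over all genes tested, FDR < 0.01), separately in each tissue, and in 1 fit of all 18 samples for the difference between tissues. DESeq2 1.42.0 was an alternative. Levels are CPM scaled by TMM factors from all 18 samples. The members and lists were chosen with earlier results of these data known, and the GC box, E-box, forkhead and TATA motifs were added after the other motifs had been searched. Named genes were all members, Fos, Egr1 and Il2ra, and up to 3 called genes with the largest fold changes per list and tissue. Genes outside this rule, such as Jun, were named after their values were seen. The alternatives were other normalizations, DESeq2, other filters on low counts (none, or at least 10 counts in every sample), FDR < 0.05, removal of the GC trend, all 18 samples in 1 fit, the thymic mouse number as a block, and leaving out mice. The procedure was tested on simulated data. P-values measure the spread between individual mice. Some genes of the pathway lists are not reported here.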

Additional observations from a re-analysis of the deposited data

Results flagged for a closer look

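Within each of 40 sets of values (10 members in 4 groups), the lowest and the highest mouse were compared with the others by Dixon's criterion, which flags about 1 in 20 sets by chance. It flagged 1 set. Thymic WT mouse 3 had *Dusp4* at 183.8 CPM, while the other 4 thymic WT mice lay between 234.3 and 244.3 CPM.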

How the results depend on the processing

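All 4 splenic calls (*Dusp4*, *Dusp10*, *Spry1* and *Ksr2*) were kept under every alternative run except all 18 samples in 1 fit, which kept 2, *Dusp10* and *Ksr2*. The cause was not tested. In the thymus, where no member was called, DESeq2 called 2 and FDR < 0.05 called 2 (*Dusp10* and *Ksr2* in both), all 18 samples in 1 fit called 1 (*Ksr2*), and leaving out CD25 KO mice 2 and 4 called 1 (*Spry1*). For the difference between tissues, FDR < 0.05 called 1 (*Dusp4*), leaving out thymic CD25 KO mice 2 and 4 called 1 (*Ksr2*), and leaving out 1 mouse at a time called 0 to 1. Same-numbered thymic mice did not deviate together (correlations of 0.095, 0.038, -0.034, -0.201 and -0.059). With the mouse number as a replicate block, 0 members were called, also with the GC trend removed, and 209 genes in all (265 with the GC trend removed) against 1047. Counts over all genes in the thymus were 2763 with DESeq2, 3951 at FDR < 0.05 and 2881 with all 18 samples in 1 fit, and 371 to 1087 leaving out 1 mouse at a time (380, 401 and 428 without WT mouse 2, 3 or 5, and 406 and 371 without CD25 KO mouse 1 or 3). In the spleen 1651 became 3001 at FDR < 0.05 and 795 with all 18 samples in 1 fit, with 1099 (without WT mouse 3) to 1723 leaving out 1 mouse, and for the difference 1305 became 2188 with DESeq2 and 3149 at FDR < 0.05, with 817 (without splenic CD25 KO mouse 2) to 1489 leaving out 1 mouse. Leaving out thymic CD25 KO mice 2 and 4 gave 2008 thymic calls and 2307 for the difference. Removing the GC trend changed the thymic split from 508 lower and 539 higher to 534 and 217, and upper-quartile scaling to 440 and 808. In the spleen, 620 and 1031 became 646 and 768 with the GC trend removed and 769 and 920 with upper-quartile scaling, and for the difference 465 and 840 became 669 and 616 with the latter.

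Signs that turned belonged to members that were never called in that comparison. Thymic *Dusp2* was 0.00731 with upper-quartile scaling, 0.0586 with the GC trend removed and 0.0661 with the block as well, thymic *Spred1* was -0.224 and -0.225 under the last 2, splenic *Dusp2* was 0.00339 with the GC trend removed, and the difference for *Dusp2* was -0.0516 with upper-quartile scaling. Without thymic CD25 KO mice 2 and 4, thymic *Spry2* was -0.0230 and the difference for *Spry1* was 0.284. Leaving out 1 mouse at a time, the log2 fold changes spanned -0.0927 to 0.0357 for thymic *Dusp2*, -0.138 to 0.00653 for thymic *Dusp5*, -0.173 to 0.0352 for thymic *Dusp6*, -0.00481 to 0.0972 for thymic *Spred1*, -0.0444 to 0.0194 for splenic *Dusp2*, -0.226 to 0.0259 for the difference of *Dusp1*, -0.0443 to 0.0837 for the difference of *Dusp2* and -0.124 to 0.102 for the difference of *Spry1*.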
